A study of Mus musculus with 40 samples.

Results

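Fto and Alkbh5 encode the m6A demethylases, the enzymes that remove the methyl group from N6-methyladenosine in RNA. Both were chosen by gene symbol, as 2 of the 20805 genes in the deposited RNA table, and both were also looked up in the lists of m6A peaks. Across midbrain of 3 mo and 15 mo mice with and without an alpha-synuclein (aSyn) transgene, the RNA level of neither gene differed between groups beyond the spread between mice. The m6A peak on the Fto transcript had a similar height in all groups, whereas the peak on the Alkbh5 transcript was listed wider and higher in both aSyn Tg groups than in both Wt groups.

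The mice were male and homozygous for an [A30P] aSyn transgene (aSyn Tg), or wild-type C57BL/6J littermates (Wt), at 3 mo and 15 mo, and received no treatment. The study places the transgene under the Thy-1 promoter, which drives expression in neurons, although the strain name it gives carries a different promoter. Expression was read from 19 input libraries, RNA kept aside before m6A immunoprecipitation, with 4 libraries of young Wt mice and 5 of every other group. The m6A values are those of 4 lists of peaks, 1 per group, made by the authors from all libraries of a group together. The list used here for old aSyn Tg mice carries no group name and was assigned because the other 3 are named, so every m6A value given for that group rests on this assignment.

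FTO and ALKBH5 belong to the AlkB family of dioxygenases, which use iron and 2-oxoglutarate to oxidise methyl groups on nucleic acids. Writers, the METTL3 and METTL14 complex and its partners, add m6A during transcription, and readers such as the YTH proteins bind it and steer splicing, export, translation or decay. FTO also acts on the cap-adjacent m6Am and is abundant in brain, and ALKBH5 acts on m6A in the nucleus. m6A marks are laid mostly in the sequence DRACH, of which GGACT is a common form, in long internal exons and near stop codons.

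Fto (ENSMUSG00000055932) lies on the plus strand at chr8:91313525-91668439, and Alkbh5 (ENSMUSG00000042650) on the plus strand at chr11:60536381-60558512 (mm10). Each gene carried 1 consensus peak in each of the 4 lists, which makes 8 of the 54337 peaks of all lists together. Every Fto peak lay in exon 3 of the 9 exons of transcript Fto-201, at chr8:91409223-91409841. This exon has 619 bases, all of them coding, and holds 41.1% of the coding sequence, while the next longest coding exon has 151 bases. Every Alkbh5 peak lay in exon 1 of the 4 exons of Alkbh5-201, at chr11:60537978-60539195. That exon holds the 5′ UTR, the start codon and 773 coding bases, 65.2% of the coding sequence.

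The stretch shared by the peaks of all 4 groups was chr8:91409555-91409705 for Fto and chr11:60538499-60538679 for Alkbh5. Within these, the motif GGACT and its variants ending in A (the motif GGACA) or in C (the motif GGACC), which do not overlap each other, were searched on the transcript strand and on the opposite strand. The Fto stretch of 151 bases held 1 match and the Alkbh5 stretch of 181 bases held 3, with 0 matches on the opposite strand of either. Windows of the same length centred on all single-block peaks held at least 1 match in 59.9% to 62.7% of cases for 151 bases and in 65.8% to 68.0% for 181 bases, and 9.70% to 10.9% of the longer windows held 3 or more. All matches within any of the peaks are given with 10 bases on each side from the RefSeq sequence of GRCm38.p6, 5′ to 3′ on the transcript strand, with the match in capitals, because the groups differed in which of them their Alkbh5 peak covered. The name gives the distance in nt of its first base from the A of the start codon.
Fto +563, in the peaks of all 4 groups: atgatgaagtGGACCttaagagcag
Alkbh5 -92, in the peak of aSyn Tg at 3 mo: ctggcactgaGGACCctcgcttccc
Alkbh5 -41, in the peaks of both aSyn Tg groups: gagccatgccGGACCgccgcggagg
Alkbh5 -28, in the peaks of both aSyn Tg groups: ccgccgcggaGGACCctagagttga
Alkbh5 +59, in all peaks except that of Wt at 3 mo: tgacgtcccgGGACAactacaaggc
Alkbh5 +163, in the peaks of all 4 groups: ccggcgtccgGGACCaccaagcgga
Alkbh5 +188, in the peaks of all 4 groups: aataccaggaGGACTcggaccccga
Alkbh5 +194, in the peaks of all 4 groups: aggaggactcGGACCccgagcgcag

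The Alkbh5 site at -41 lies at chr11:60538382-60538386 and that at -28 at chr11:60538395-60538399, both in the 5′ UTR of exon 1. The site at +188 lies at chr11:60538611-60538615 and the Fto site at chr8:91409663-91409667, both in coding sequence. In all, the Alkbh5 peak covered 3 matches in young Wt mice and 4 in old ones, and 7 in young and 6 in old aSyn Tg mice, whereas each Fto peak covered 1. A match is a description of the sequence, and no base was assigned as methylated.

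The input libraries held 2163856 to 9195756 reads. The library numbered 5 of aSyn Tg at 15 mo had the fewest reads, and its 10 most abundant genes took 10.004% of them against 5.44% to 7.88% in the others. Thy1, whose promoter the study names as that of the transgene, was present at 1351 to 2483 CPM, read counts scaled to a fixed library size, in the 10 aSyn Tg libraries and at 260 to 334 in the 9 Wt libraries. The dopaminergic markers Th, Slc6a3, Slc18a2 and Ddc were detected in every group, with a summed level of 247 to 481 CPM. The serotonergic markers Tph2 and Slc6a4 summed to 4.99 to 61.3 CPM in Wt at 15 mo and to 91.8 to 215 in the other groups, and both were called lower with age in Wt mice and higher in aSyn Tg than in Wt mice at 15 mo. Of 4 microglial markers, 2 were called higher with age in aSyn Tg mice. Of 4 astrocyte markers, only Slc1a3 was called with age in Wt mice, as higher (log2 fold change 0.37). The median of these 4 was -0.05 and the lowest -0.20, so they did not share a direction. Of 2 markers of oligodendrocyte precursors, Cspg4 was called lower with age in Wt mice (-0.44). The markers of neighbouring forebrain and thalamus, Tcf7l2, Lef1, Prox1 and Neurod6, summed to 156 to 457 CPM. The 3 of them tested had a median log2 fold change of 0.74 with age in Wt mice. Of these, 0 were called, beside 0.361% of all genes tested. Whether the dissected tissue was the same in all libraries was not tested. The part of any of these in the values of Fto and Alkbh5 was not tested. In such bulk tissue, fewer cells of a type and less RNA per cell cannot be told apart.

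Fto RNA was measured in all 19 libraries and its levels overlapped between all groups. In Wt at 3 mo it reached 238.2 CPM in library 2, 237.9 in library 3, 249.9 in library 4 and 252.0 in library 5, a mean of 244 ± 7.50 (SD, n = 4). In Wt at 15 mo the levels in libraries 1 to 5 were 252.8, 237.4, 259.8, 254.9 and 251.0 CPM, a mean of 251 ± 8.35 (SD, n = 5). In aSyn Tg at 3 mo the levels in libraries 1, 3, 4, 5 and 6 were 244.1, 265.1, 244.2, 238.7 and 247.1 CPM, a mean of 248 ± 10.1 (SD, n = 5). The first 3 groups spanned nearly the same range, with library 3 of aSyn Tg at 3 mo as the highest among them. In aSyn Tg at 15 mo the levels in libraries 2 to 6 were 249.8, 243.3, 238.3, 283.9 and 273.2 CPM, a mean of 258 ± 19.8 (SD, n = 5). Libraries 5 and 6 of this group held the highest Fto levels of all 19, and the highest of them came from the shallowest library, with 569 Fto reads against 870 to 2245 in the others. From low to high the group means ran Wt 3 mo, aSyn Tg 3 mo, Wt 15 mo and aSyn Tg 15 mo, and the ranges of all neighbours in that order overlapped.

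Alkbh5 RNA varied less than Fto RNA after TMM scaling, an order that reversed on raw library totals. In Wt at 3 mo the levels in libraries 2 to 5 were 124, 126, 125 and 117 CPM, a mean of 123 ± 4.02 (SD, n = 4). In Wt at 15 mo libraries 1 to 5 held 126, 130, 130, 124 and 130 CPM, a mean of 128 ± 2.71 (SD, n = 5). The old Wt mice lay at the upper end and library 5 of the young Wt mice was the lowest of all. In aSyn Tg at 3 mo libraries 1, 3, 4, 5 and 6 held 122, 121, 127, 130 and 128 CPM, a mean of 126 ± 3.84 (SD, n = 5). In aSyn Tg at 15 mo libraries 2 to 6 held 123, 124, 127, 124 and 122 CPM, a mean of 124 ± 2.18 (SD, n = 5). The order of the means was Wt 3 mo, aSyn Tg 15 mo, aSyn Tg 3 mo and Wt 15 mo, which is not the order of the Fto means, and again all neighbours overlapped. The Alkbh5 level of the shallow library, at 249 reads, was 124 CPM and lay inside its group.

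**Figure D1:**
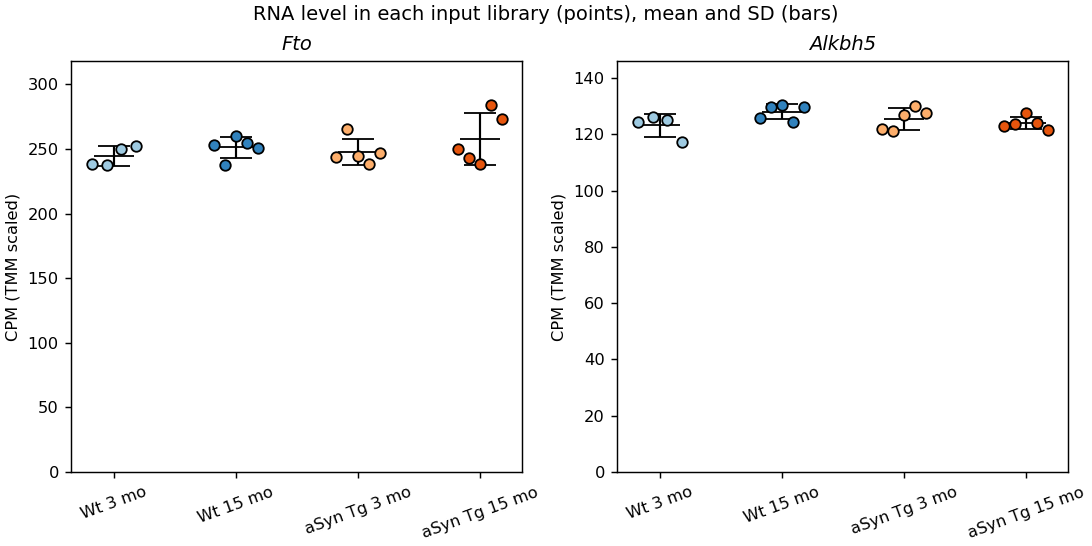
RNA level of Fto (left) and Alkbh5 (right) in each input library, in CPM after TMM scaling, with 1 point per mouse and bars for the mean and SD of each group. All groups overlap for both genes, and the aSyn Tg 15 mo group holds the 2 highest Fto points, 284 and 273 CPM.

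Over the 19 libraries the highest Fto level was 1.196 times the lowest, and the highest Alkbh5 level 1.112 times the lowest. The coefficient of variation was 5.04% for Fto and 2.79% for Alkbh5, and 5.57% and 0.119% of the 10905 genes that averaged 50 or more normalized counts had a lower one, in the case of Alkbh5 13 genes. Among the 861 genes within 0.25 log2 units of the mean count of Alkbh5, the median coefficient of variation was 6.81%. Counting of reads alone gives a typical coefficient of 2.85% for Fto and 4.04% for Alkbh5, the medians over libraries. The variance of Alkbh5 reads was 0.475 times the variance expected from counting, against a median of 1.81 over all genes, and that of Fto reads 2.53 times. Alkbh5 thus varied between mice by less than the counting error, so that no difference between mice was detectable at this depth. The rank depends on the scaling, since on raw library totals the coefficient of variation was 3.87% for Fto and 4.04% for Alkbh5, lower than that of all but 1.26% and 1.69% of genes.

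None of the comparisons placed either gene past both limits used, 0.05 for the adjusted p and 1.2 for the fold change (edgeR quasi-likelihood test with Benjamini-Hochberg adjustment over all genes tested), and the lowest unadjusted p of a member was 0.162. Between young aSyn Tg and Wt mice, where 0.835% of all genes tested were called, the log2 fold change was 0.02 ± 0.04 (SE) for Fto and 0.03 ± 0.04 for Alkbh5, with adjusted p of 0.877 and 0.858. At 15 mo, where 0.22% of genes were called, it was 0.04 ± 0.06 for Fto (adjusted p = 0.827) and -0.04 ± 0.04 for Alkbh5 (adjusted p = 0.749). Neither the presence of the transgene at the young nor at the old age moved these RNAs by more than the error of the fit.

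With ageing in Wt mice, where 0.361% of genes were called, the log2 fold change from 3 mo to 15 mo was 0.04 ± 0.04 for Fto (adjusted p = 0.694) and 0.05 ± 0.04 for Alkbh5 (adjusted p = 0.589). With ageing in aSyn Tg mice, where 0.918% were called, it was 0.06 ± 0.05 for Fto (adjusted p = 0.761) and -0.01 ± 0.04 for Alkbh5 (adjusted p = 0.945). Without the shallow library, the Fto difference with age in aSyn Tg was 0.02 and that between genotypes at 15 mo was 0.0043, so this library supplied most of both estimates.

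Taking both ages together, the difference between genotypes was 0.03 ± 0.03 for Fto and -0.0074 ± 0.03 for Alkbh5, with adjusted p of 0.759 and 0.957 and 0.174% of genes called. Taking both genotypes together, the difference with age was 0.05 ± 0.03 for Fto and 0.02 ± 0.03 for Alkbh5, with adjusted p of 0.518 and 0.823 and 1.47% of genes called. The interaction, which asks whether ageing differed between genotypes, was 0.01 ± 0.07 for Fto (adjusted p = 0.985) and -0.07 ± 0.05 for Alkbh5 (adjusted p = 0.669), with 0.00917% of genes called. The pairwise comparisons share groups, so these values are not independent of each other.

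These data bounded the changes as well as failing to show them. The widest 95% interval of a pairwise comparison reached from 0.946 to 1.117-fold for Fto, between genotypes at 15 mo, and from 0.973 to 1.107-fold for Alkbh5, with age in Wt mice. Over both ages the genotype difference lay within 0.974 to 1.07-fold for Fto and 0.957 to 1.03-fold for Alkbh5. All 14 intervals, those of the interaction included, lay inside a 1.2-fold change in either direction.

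**Figure D2:**
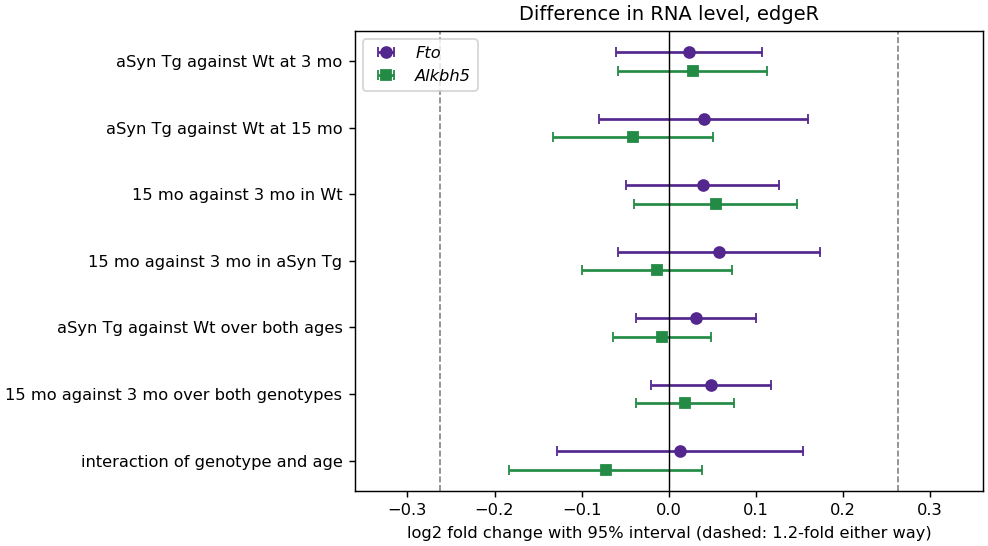
log2 fold change of Fto (circles) and Alkbh5 (squares) with its 95% interval in the 4 pairwise comparisons, the 2 averaged comparisons and the interaction of genotype and age, from edgeR. Every interval crosses 0 and stays between the dashed lines at a 1.2-fold change.

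The reads of Fto relative to those of Alkbh5 within a library need no scaling between libraries. The log2 of this ratio averaged 0.99 ± 0.08 (SD, n = 4) in young and 0.97 ± 0.06 (SD, n = 5) in old Wt mice. It averaged 0.98 ± 0.09 (SD, n = 5) in young and 1.05 ± 0.12 (SD, n = 5) in old aSyn Tg mice. The groups overlapped in each of the 4 pairwise comparisons. The largest difference was 0.08, aSyn Tg vs. Wt at 15 mo (exact permutation test, two-sided, p = 0.230, adjusted over the 4 comparisons p = 0.619, smallest possible p = 0.00794). This measure was added after the data were seen.

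Per kb of exon, both demethylases were among the more abundant m6A genes. Fto averaged 19.2 CPM per kb over its 13031 exonic bases, a level above that of 78.2% of genes, and Alkbh5 20.9 CPM per kb over 5987 bases, above 80.4%. Of 35 writers, readers, related dioxygenases and demethylases with a level, Alkbh5 ranked 4 and Fto 5. The length used is that of all exons annotated for a gene, over 7 transcripts for Fto. It far exceeds the 1506 coding and 2007 3′ UTR bases of Fto-201, while Alkbh5-201 has 1185 and 4100. The level of Fto per kb, its rank and its order against Alkbh5 thus depend on this length, and other lengths were not tested. Above them lay the readers Prrc2a and Hnrnpa2b1, at 64.3 and 59.7 CPM per kb, and the writer subunit Zc3h13, at 50.6. The catalytic writer Mettl3 reached 4.70 CPM per kb and its partner Mettl14 6.02, while the highest YTH reader, Ythdf1, reached 14.2. These genes were named after their levels were seen. The exons annotated for Fto overlap those of 2 antisense genes over 448 bases, and no source used here gives the strand setting of the counting, so reads in these bases cannot be assigned.

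**Figure D3:**
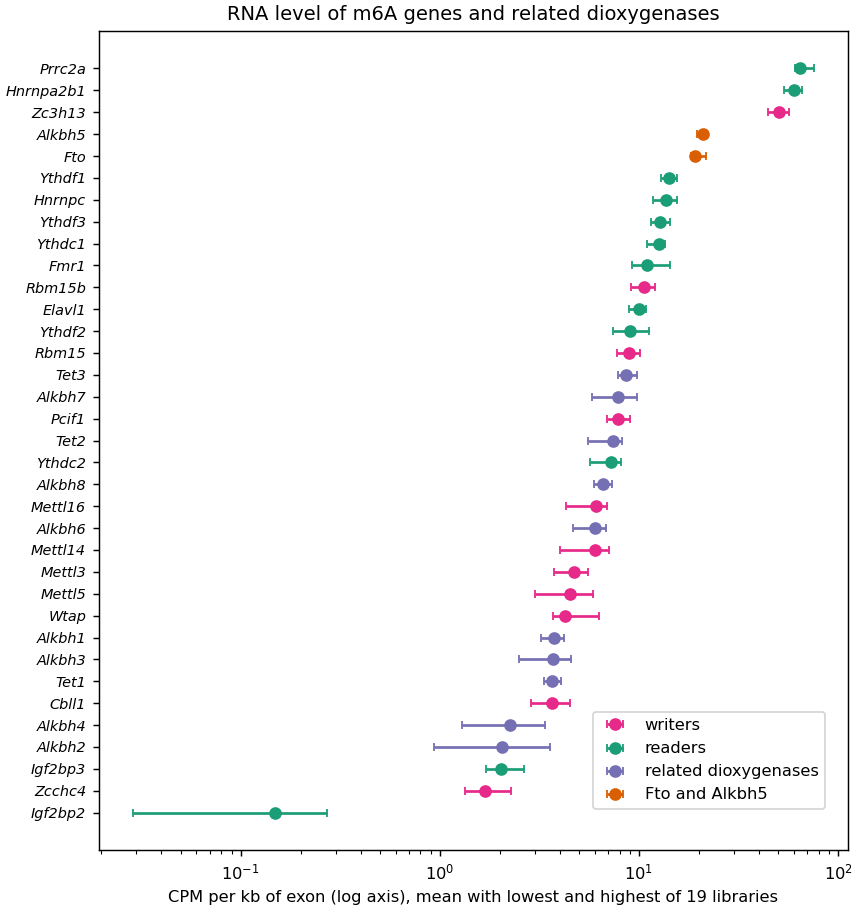
Level of 35 genes in CPM per kb of exon on a log axis, as the mean over 19 libraries with bars from the lowest to the highest library. The length is that of all exons annotated for a gene, and the order depends on it. Alkbh5 and Fto, at 20.9 and 19.2 CPM per kb, stand below Prrc2a, Hnrnpa2b1 and Zc3h13 and above all other genes plotted.

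The rest of the m6A machinery did not pass the test either. Of 12 writers, 10 or 11 were tested and 0 were called in each of the 4 pairwise comparisons, and of 13 readers, 11 were tested and 0 were called (edgeR). These comparisons called 0.22% to 0.918% of all genes tested, so a count of 0 in lists this short is near that share. DESeq2 and limma voom also called 0. At an unadjusted p under 0.05, 0 or 1 writers and 1 to 3 readers were found per comparison, where this limit holds 11.2% to 15.6% of all genes tested. The median log2 fold change of the writers ran from -0.06 to 0.03 and that of the readers from -0.06 to 0.01, beside medians of -0.0020 to 0.0063 over all genes.

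Genes that serve the demethylases or lie next to them also gave no calls, in short lists and beside the same 0.22% to 0.918% of all genes. The AlkB and TET dioxygenases, which share the catalytic mechanism, had 7 of 10 genes tested and 0 called in any pairwise comparison. Of the enzymes that make or consume 2-oxoglutarate and succinate, the co-substrate and the product of these dioxygenases, 10 of 11 were tested and 0 were called. The neighbours of Fto, which include Rpgrip1l, whose start lies close to that of Fto on the other strand, and the Irx genes, had 5 or 6 of 7 tested and 0 called. Irx3, a transcription factor gene of that locus, had the lowest adjusted p among these lists in the pairwise comparisons, 0.0560, for a log2 fold change of -0.73 ± 0.15 (SE) with age in Wt mice. Of the 10 symbols listed as neighbours of Alkbh5, which include Myo15 and Myo15a as alternative names of the same gene, 7 were tested and 0 were called. With age over both genotypes, Idh1, which makes 2-oxoglutarate, had a log2 fold change of -0.20 ± 0.05 (SE, edgeR adjusted p = 0.0247) and the writer Mettl16 one of -0.17 ± 0.04 (adjusted p = 0.0434), both short of the fold change limit. Irx3, Idh1 and Mettl16 were named after their values were seen.

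Fto and Alkbh5 levels did not rise and fall together across mice. Over all 19 libraries, Pearson's r of log2 CPM (pseudocount 1) was -0.34 (100000 permutations, two-sided, p = 0.151) and Spearman's rho was -0.38 (permutation p = 0.107). With the mean of each group subtracted, r was -0.46 (permutation within groups, p = 0.0317) and rho -0.48 (permutation p = 0.0433), both with p = 0.0867 after adjustment over the 4 relations. Without the 2 libraries farthest from the median of Fto, libraries 5 and 6 of aSyn Tg at 15 mo, r was -0.29 over all libraries (permutation p = 0.257) and -0.59 within groups (permutation p = 0.0256). On raw library totals the value within groups was -0.29 (permutation p = 0.274), so the relation depended on the scaling.

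The genes whose levels followed Fto most closely over the 19 libraries were Aes, a Groucho-family corepressor gene, with Pearson's r of 0.83, Fhl1, a LIM-domain protein gene, with 0.82, and Copg1, a coatomer subunit gene, with 0.82. Uqcr10, a subunit of respiratory complex III, followed with 0.80. The lowest correlations were those of Rims4, an active-zone protein gene, with -0.86, and of Wdpcp and Dpp7, with -0.80 each. For Alkbh5 the closest genes were Txndc11 with 0.77, Mrpl47 with 0.74, Nhp2 with 0.73, Dgat1 with 0.66 and Mettl22 with 0.66, and the most opposed were Gfpt1 with -0.70, Atp1b2 with -0.70 and Pdgfa with -0.63. With group means subtracted these correlations ran from 0.79 to 0.83 for Aes, Fhl1, Copg1 and Uqcr10 with Fto and from 0.65 to 0.76 for the 5 closest to Alkbh5. The central 90% of genes lay between -0.50 and 0.53 for Fto and between -0.34 and 0.33 for Alkbh5. The points share sequencing depth and library composition, and no test was attached to these values.

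The m6A peak of Fto was low and stable. Its fold enrichment, the ratio of immunoprecipitated to input reads that the authors give for all libraries of a group together, was 2.11 in young and 2.36 in old Wt mice, and 1.95 in young and 2.10 in old aSyn Tg mice. The median peak of the same lists had 4.70, 4.94, 4.74 and 5.22, and 2.31% to 7.26% of peaks had a lower value than that of Fto. The false discovery rates of the peak ran from 1e-34 to 5.01e-16.

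In all groups the Fto peak sat well inside exon 3, centred 485 to 560 nt after the start codon. Its width differed little between genotypes, but its position was shifted at 3 mo, where the intervals shared 151 bases, 71.9% of the shorter. The peak covered chr8:91409555-91409765 in Wt at 3 mo and chr8:91409436-91409765 in Wt at 15 mo, 211 and 330 bases. It covered chr8:91409496-91409705 in aSyn Tg at 3 mo and chr8:91409436-91409735 in aSyn Tg at 15 mo, 210 and 300 bases. The 15 mo peak was wider than the 3 mo peak in both genotypes, by 1.56 times in Wt and 1.43 times in aSyn Tg, and began at the same base in both.

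The m6A peak of Alkbh5 was listed with a higher value in aSyn Tg than in Wt at both ages. With 1 value per group, this could not be tested against the spread between mice. The authors' differential lists between genotypes at 1 age did not hold it. Its fold enrichment was 1.78 in Wt at 3 mo and 2.02 in Wt at 15 mo, but 3.29 in young and 3.52 in old aSyn Tg mice. In the Wt lists 1.67% and 3.29% of peaks had a lower value, and in the aSyn Tg lists 24.0% and 24.5%. The peak stayed below the median of its list in every group. Its false discovery rate ran from 1.26e-31 in aSyn Tg at 15 mo to 1.51e-10 in Wt at 3 mo.

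The Wt peaks lay wholly in coding sequence, and the aSyn Tg peaks reached back over the start codon. In Wt the peak covered chr11:60538499-60538679 at 3 mo and chr11:60538469-60538709 at 15 mo, 181 and 241 bases, and began 76 and 46 nt after the A of the start codon. In aSyn Tg it covered chr11:60538320-60538798 at 3 mo and chr11:60538350-60538709 at 15 mo, 479 and 360 bases. These peaks began 103 and 73 nt before the start codon, and held the sites at -41 and -28. Peaks over the start codon made up 4.201% to 4.56% of the single-block peaks placed on a coding transcript, with similar shares in all 4 lists. Of 733 genes with such a peak in any group, 18 had it in both aSyn Tg groups and in neither Wt group, as Alkbh5 did, and 23 had it in both Wt groups and in neither aSyn Tg group.

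**Figure D4:**
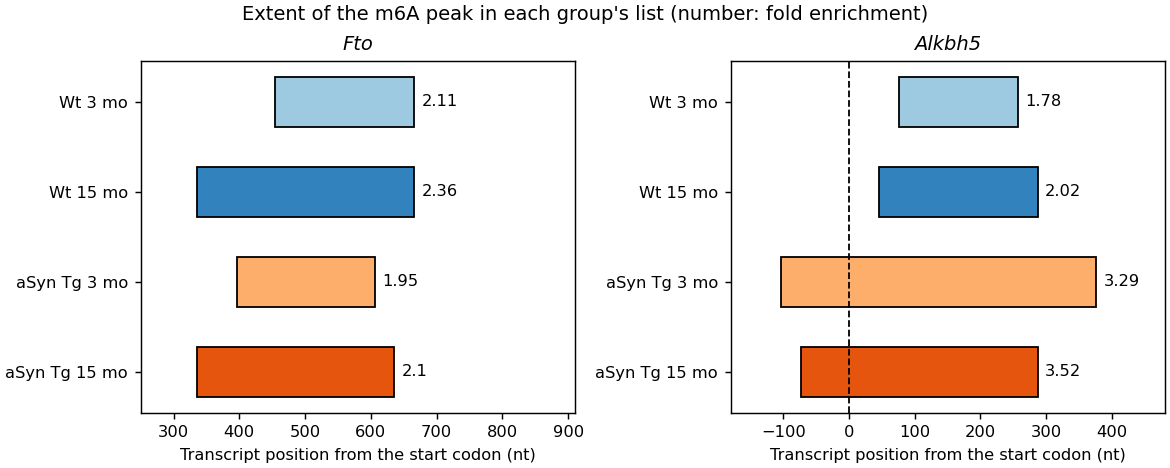
Extent of the m6A peak on the Fto (left) and Alkbh5 (right) transcript in each group's list, in nt from the A of the start codon (dashed line for Alkbh5), with the authors' fold enrichment beside each bar. The Alkbh5 peak is higher in aSyn Tg (3.29 and 3.52) than in Wt (1.78 and 2.02) and only there extends over the start codon, while the Fto peak stays between 1.95 and 2.36.

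Set against the peaks that overlapped between the same pairs of lists, the ratio of Alkbh5 between genotypes lay near the upper end at both ages. The ratio of its fold enrichment in aSyn Tg to that in Wt was 1.85 at 3 mo and 1.74 at 15 mo, and 97.7% of 11712 and 95.6% of 11671 matched peaks had a lower ratio. Counting differences in either direction, 93.2% and 89.4% of them had a smaller one. Divided by the median of each list, the ratios were 1.83 and 1.65. The median ratio over matched peaks was 1.03 and 1.02. The peak was also 2.65 and 1.49 times as wide in aSyn Tg, where the median width ratio was 0.9746 and 0.9543. Of 9990 peaks matched at both ages, 64, or 0.641%, had a ratio of at least 1.7 at both, a limit set after the Alkbh5 values were seen and one that the 15 mo value passes only before division by the list medians. For Fto the ratios were 0.924 and 0.890, and 1913 of those peaks, 19.1%, were likewise below 1 at both ages.

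With age the fold enrichment ratio of Fto was 1.118 in Wt and 1.08 in aSyn Tg, and that of Alkbh5 1.13 in Wt and 1.07 in aSyn Tg, close to the medians of 1.08 and 1.06 over matched peaks. The ratios in aSyn Tg turned to 0.978 and 0.972 when each value was divided by the median of its list, so no direction with age is given there. The lists hold 1 value per group and no value per mouse, and these differences could not be tested against the spread between mice. The input RNA of Alkbh5, measured in the same groups, differed by 1.02-fold between genotypes at 3 mo and by 0.972-fold at 15 mo.

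**Figure D5:**
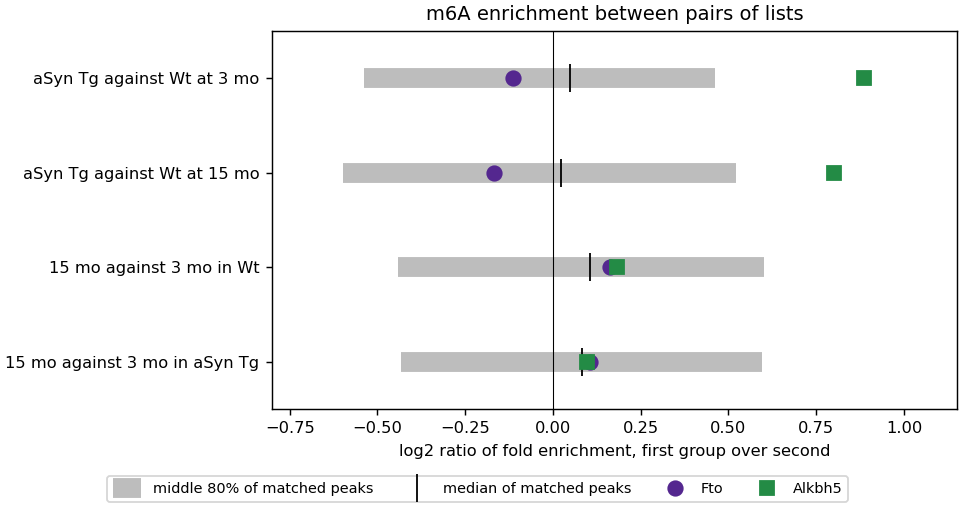
log2 ratio of m6A fold enrichment between pairs of lists for Fto (circles) and Alkbh5 (squares), with the middle 80% (grey) and the median (tick) of all overlapping peaks. Alkbh5 lies beyond the grey bars in aSyn Tg vs. Wt at both ages, with ratios of 1.85 and 1.74, and inside them with age, and Fto lies inside them in all 4 comparisons.

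The authors' lists of differential peaks, made with another peak caller for 6 pairs of groups, held Fto in 0 lists and Alkbh5 in 1. Of 8361 genes with a consensus peak, 13.3% were in at least 1 of the 6 lists. The list with Alkbh5 was the longest and held 7.57% of these genes, and the other 5 held 4.72% (aSyn Tg 15 mo and aSyn Tg 3 mo), 4.52% (aSyn Tg 3 mo and Wt 3 mo), 4.03% (aSyn Tg 15 mo and Wt 15 mo), 1.55% (Wt 15 mo and aSyn Tg 3 mo) and 5.01% (Wt 15 mo and Wt 3 mo). It compared aSyn Tg at 15 mo with Wt at 3 mo, groups that differ in both genotype and age, so that the effects cannot be told apart, and placed Alkbh5 among 638 peaks with higher methylation and 85 with lower. The Alkbh5 region was chr11:60538260-60538978, 719 bases with 163 in the 5′ UTR and 556 in coding sequence, and included the consensus peaks of all 4 groups. Its log2 difference as deposited by the authors was 0.48, or 1.40-fold, with a false discovery rate of 0.00105, and 70.7% of the peaks in that list had a smaller difference. Neither list that compared the genotypes at 1 age held an Alkbh5 peak, so the consensus lists and the differential lists did not single out the same pairs of groups.

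Most other genes of the machinery with a peak carried a higher one than the demethylases. Over all 10905 genes that averaged 50 or more normalized counts, 47.2% had a peak in all 4 groups, 12.3% in some and 40.5% in none, and over all 20805 genes 28.8% had one in all. Of 12 writers, 7 had a peak in all 4 groups and 5 had none under the symbol looked up, the latter including Mettl3 and Mettl14. Of 13 readers, 5 had a peak in all groups, 1 in some and 7 in none under the symbol looked up. The writer Virma and the reader Igf2bp1, both counted as without a peak, also had no RNA level under these symbols. Whether they are listed under other names was not tested, so their count as without a peak does not show absence of m6A. Of 10 related dioxygenases, 4 had a peak in all groups, among them Alkbh1 and the TET genes, 1 in some and 5 in none. The highest peak of Rbm15b, an adaptor subunit of the writer complex, had a fold enrichment of 33.9 in young Wt and 10.7 in young aSyn Tg mice. The reader Ythdf2 reached 10.6 and 6.04 in these groups, Tet3 11.3 and 10.9, and Mettl16, a separate methyltransferase, 4.32 and 3.6. At 15 mo the values in Wt and aSyn Tg were 19.9 and 13.5 for Rbm15b, 8.61 and 9.26 for Ythdf2, 16.2 and 11.2 for Tet3 and 3.22 and 4.48 for Mettl16, so the direction for Ythdf2 and Mettl16 turned with age. Wtap (5.25 and 6.57), Zc3h13 (6.38 and 7.19) and Alkbh1 (4.7 and 5.72) were higher in aSyn Tg than in Wt at 3 mo. They were also higher at 15 mo, at 5.87 and 6.13, 6.87 and 7.78, and 5.29 and 5.46. Cbll1 was likewise higher in aSyn Tg at 3 mo (5.26 and 5.4) and at 15 mo (5.55 and 10.6). In the values as listed, these genes thus shared the direction of Alkbh5 at both ages, whereas Rbm15b, Tet1, Tet2 and Tet3 were lower in aSyn Tg at both. Each value is that of the highest peak of a gene, whose position was not matched between lists. Zc3h13 had 6 peaks in Wt and 3 in aSyn Tg at 3 mo. The list medians at 15 mo, 4.94 in Wt and 5.22 in aSyn Tg, also differed, and the values were not divided by them. No direction is therefore given for differences as small as those of Wtap and Alkbh1 at 15 mo. Only Hnrnpa2b1 had values below those of both demethylases, 1.61 in Wt and 1.81 in aSyn Tg at 3 mo, and the sign of the difference between genotypes was not shared among these genes.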

How the data were processed

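The members and gene lists were chosen with earlier results of these data known. Per the study's methods, reads were trimmed (Cutadapt), mapped to mm10 (STAR) and counted per gene (featureCounts), although mm9 is the build named in the labels. The signal values the authors deposited for each library are counts divided by a size factor. Division by the smallest value above 0 in a library gave whole reads for 100% of 395295 values (tolerance 0.01), and the count test planned for raw counts was run on these. A further 36 library columns were not used. The aSyn Tg columns are numbered up to 6 and the labels up to 5, so they were assigned to groups only. For m6A, the authors deposited fold enrichment as a ratio (MeTPeak per group, exomePeak between groups), the log10 of the FDR, treated here as a score, and the log2 difference of differential peaks, which is printed for the Alkbh5 peak only. The authors' fold changes and p-values for RNA were not used. Of the 4 consensus lists, 1 carries no group name and was taken as aSyn Tg at 15 mo because the others are named. Peak coordinates count from 0 in the files (6742 of 6763 multi-block peaks then have a last block that begins at an exon start) and are given from 1.

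The filter kept genes averaging 50 or more normalized counts. The quasi-likelihood test of edgeR 4.0.16 (TMM scaling, R 4.3.3), checked on simulated data, used 2 groups for each pairwise comparison and all 4 for the others. The alternatives were DESeq2 1.42.0, voom of limma 3.58.1, RLE and upper-quartile scaling, other filters, all groups in 1 fit, factors of unwanted variation, a replicate block and leaving out each library. The ratio of Fto to Alkbh5 reads was added after seeing the data. Each peak was placed on a transcript of its gene in GENCODE M21, with Python 3.11.15 and pandas 2.3.3. By rule, the text names the members, list genes that were called or whose peaks are compared with theirs, and the 5 highest and 3 lowest correlated genes per member. Some items that fall under these rules are not reported here. Counting errors assume independent reads.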

Additional observations from a re-analysis of the deposited data

How the results depend on the processing

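Neither gene was called in any of the 14 comparisons, which count each gene separately. Nor was it in any of 330 alternative fits, the total over all 14, and the lowest adjusted p was 0.355 (edgeR with 2 factors of unwanted variation). The direction changed in 5 of the 330 fits, each with a library left out. Leaving out each library in turn, the log2 fold change of Fto ran from -0.0022 to 0.037 for aSyn Tg vs. Wt at 3 mo, negative without library 3 of aSyn Tg at 3 mo. That of Alkbh5 with age in aSyn Tg ran from -0.026 to 0.0015, positive without library 5 of aSyn Tg at 3 mo. The interaction for Fto ran from -0.017 to 0.040, negative without library 2 of Wt at 15 mo and without library 5 or 6 of aSyn Tg at 15 mo. The cause was not tested. Without library 5 of aSyn Tg at 15 mo, Fto moved from 0.04 to 0.0043 between genotypes at 15 mo. The count of m6A machinery genes called stayed at 0 in 81 alternatives, in comparisons whose reported fits called 0.22% to 0.918% of all genes.

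The correlation of Fto with Alkbh5 within groups was -0.29 on raw library totals (permutation p = 0.274), where it no longer passed 0.05, and ran from -0.58 to -0.37 with a library left out. Over all libraries it ran from -0.44 to -0.27. It was no longer past 0.05 within groups without library 3 or 5 of Wt at 3 mo, 4 or 6 of aSyn Tg at 15 mo, or 3 or 5 of aSyn Tg at 3 mo.

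Divided by the median of its list, the fold enrichment ratio with age in aSyn Tg was 0.978 for Fto and 0.972 for Alkbh5. A fold change limit of 1.5 left 0 differential Alkbh5 peaks. All consensus peaks of both genes remained at an FDR of 0.001 and with an overlap of 50% of the shorter peak.

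The columns carry the numbers of the labels in Wt only. With a replicate block over Wt numbers 2 to 5, the difference with age was 0.04 for Fto and 0.06 for Alkbh5, and 4 genes were called against 12 in the same libraries without it. Same-numbered samples did not deviate together (correlations of -0.27 to 0.03), so the numbers were not used as pairs. In the other comparisons the numbers of the aSyn Tg column names are not those of the labels. A block on them, added after seeing the data, called neither gene and turned no direction. It left 44 calls against 74 in the same libraries without it for aSyn Tg vs. Wt at 3 mo, and 39 against 26 at 15 mo. For aSyn Tg vs. Wt at 15 mo, same-numbered libraries correlated at 0.19, 0.34, 0.15 and -0.026. The correlations ran from -0.28 to -0.011 for aSyn Tg vs. Wt at 3 mo and from -0.15 to 0.15 with age in aSyn Tg. In none of the pairwise comparisons did every pair exceed 0.1.

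Depth limits Alkbh5 most in library 5 of aSyn Tg at 15 mo, where 249 reads give a counting error of 6.34%.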
